A study of Mus musculus with 46 samples.

Results

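The aryl hydrocarbon receptor (AHR) gene set described here held 7 genes of the 48795 in the mouse FPKM table: Ahr, Arnt, Ahrr, Cyp1a1, Cyp1b1, Tiparp and Nqo1. They were chosen by name as the receptor, its partner, its repressor and its classical targets, and the set was selected because Cyp1a1 was among the genes most lowered after 2 doses of PD-1 antibody, so that contrast is described without a test. RNA from MC38 mouse colon carcinoma, as cultured cells and as subcutaneous tumors, was sequenced in bulk in 46 samples of 8 groups to compare antibody blockade of PD-1 with its deletion. The groups were 3 MC38 cultures, 3 untreated tumors (baseline), 5 isotype and 5 PD-1 Ab (muDX400, 5 mg/kg) tumors after 1 dose at day 4, 5 and 5 after 2 doses at day 8, and 10 PD-1cKO and 10 WT tumors labelled day 28, all from female mice aged 8 to 10 weeks on the C57BL/6NTac background. Days 4 and 8 are those of the labels. The paper dates these antibody tumors to later days after implant, so 4 and 8 are not tumor ages. It dates the PD-1cKO tumors to day 28 after implant in its results and to an earlier day in its methods.

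PD-1cKO mice carried Pdcd1 fl/fl with Rosa26-creERT2, a tamoxifen-activated Cre expressed in every tissue, and they and their WT littermates both received tamoxifen at 40 mg/kg on 5 days, and the implanted line was the same in all groups. All hosts were immunocompetent, the antibody hosts were wild type, and MC38 is 1 transplanted line. Pdcd1 averaged 9.61 ± 4.51 FPKM (SD, n = 10) in PD-1cKO and 3.30 ± 1.46 (n = 10) in WT tumors; a gene-level value cannot show the loss of exons 2 and 3, so it checks no label. In all 3 cultures 5 of 10 T cell markers (Cd3d, Cd3e, Cd3g, Cd8b1 and Cd2) were listed at 0. So were 4 of 10 macrophage markers (Adgre1, C1qa, C1qb and C1qc). The 10 T cell markers summed to 0.160 to 0.337 FPKM in the cultures and the 10 macrophage markers to 13.3 to 14.8. Isotype replicate 1 after 1 dose stood apart, with 54.6% of its FPKM on mitochondrial genes, and short noncoding RNA held 30.2% to 66.5% of FPKM in the PD-1cKO study against at most 0.0746% in every other library, so levels are compared within a study. Read depth is unknown from FPKM.

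AHR is a ligand-activated transcription factor of the bHLH-PAS family. It rests in the cytoplasm with the chaperone HSP90, binds ligands such as dioxins, plant indoles and the tryptophan metabolite kynurenine, moves to the nucleus, pairs with ARNT and binds DNA at sites built on the letters GCGTG. Its targets include the cytochrome P450 enzymes Cyp1a1 and Cyp1b1, the detoxifying quinone reductase Nqo1, and 2 inhibitors that close the loop, the repressor Ahrr and the ADP-ribosyltransferase Tiparp. In tumors the pathway is studied as a link between tryptophan breakdown and immune suppression.

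The start-site windows of Cyp1a1, Cyp1b1, Ahrr and Tiparp are shown because these are the 4 targets of the set whose windows held the GCGTG core through which the receptor is known to act. Each runs from 250 bases before to 50 bases after the RefSeq start (GRCm38.p6), in the direction of transcription, and capitals mark the core, read as GCGTG or, on the opposite strand, CACGC. Cyp1a1 lies at chr9:57697363-57697662 (plus strand), Cyp1b1 at chr17:79715012-79715311 (minus), Ahrr at chr13:74292282-74292581 (minus) and Tiparp at chr3:65528197-65528496 (plus).
Cyp1a1: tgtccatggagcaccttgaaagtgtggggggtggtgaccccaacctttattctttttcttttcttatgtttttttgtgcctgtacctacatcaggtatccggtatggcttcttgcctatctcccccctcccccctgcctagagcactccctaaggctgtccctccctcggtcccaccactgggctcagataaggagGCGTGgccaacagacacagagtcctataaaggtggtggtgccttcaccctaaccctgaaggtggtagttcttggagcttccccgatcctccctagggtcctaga
Cyp1b1: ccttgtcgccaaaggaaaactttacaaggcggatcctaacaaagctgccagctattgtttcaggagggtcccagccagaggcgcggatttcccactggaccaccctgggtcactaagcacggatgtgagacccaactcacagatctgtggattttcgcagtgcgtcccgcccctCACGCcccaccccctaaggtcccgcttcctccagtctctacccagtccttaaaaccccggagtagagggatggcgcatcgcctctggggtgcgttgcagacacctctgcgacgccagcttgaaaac
Ahrr: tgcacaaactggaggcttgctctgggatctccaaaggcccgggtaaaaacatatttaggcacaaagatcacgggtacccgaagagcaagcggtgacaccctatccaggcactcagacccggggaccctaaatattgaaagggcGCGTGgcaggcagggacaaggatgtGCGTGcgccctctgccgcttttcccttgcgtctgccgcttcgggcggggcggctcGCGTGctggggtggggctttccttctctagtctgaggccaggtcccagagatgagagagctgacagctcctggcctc
Tiparp: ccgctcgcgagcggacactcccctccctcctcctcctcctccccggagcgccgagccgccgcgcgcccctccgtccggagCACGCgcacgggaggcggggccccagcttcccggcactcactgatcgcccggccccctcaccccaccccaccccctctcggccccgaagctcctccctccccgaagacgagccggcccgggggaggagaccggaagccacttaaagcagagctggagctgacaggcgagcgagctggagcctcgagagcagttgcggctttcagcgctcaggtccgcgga

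Of the 6 members with a window, Ahrr held the core 3 times (27, 82 and 107 bases before the start), Cyp1a1 once (54 bases before), Cyp1b1 once on the opposite strand (76 before), Tiparp once on the opposite strand (170 before) and Arnt once (29 before); Nqo1 held none. The core occurred in 32.4% of 32851 windows of the same length, and 3 or more cores in 3.91%. A match describes these letters and is not a binding site. The table's Cyp1a1 gene (ENSMUSG00000032315) lies on chromosome 9, and 3.43% of its 50-base stretches also occur in its neighbour Cyp1a2, whose mean was at most 0.0171 FPKM in any group. The other members shared at most 0.232% of their stretches with another gene.

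The receptor Ahr and its partner Arnt were present in every sample, Ahr at group means of 3.08 to 5.50 FPKM and Arnt at 16.0 to 28.3 FPKM. In the order of Ahr means, cultures stood first (5.50 ± 0.14, SD, n = 3) and baseline tumors last (3.08 ± 1.55, n = 3), and no neighbours in that order were separated by more than the larger of their SDs. For Arnt only the first step, from cultures (28.3 ± 0.42, n = 3) to PD-1 Ab after 1 dose (25.8 ± 0.47, n = 5), exceeded that spread. The last places went to WT (18.2 ± 2.91, n = 10) and PD-1cKO (16.0 ± 3.44, n = 10), whose libraries have the different composition given above. Isotype replicate 1 after 1 dose was lowest of all samples for both genes, at 1.51 and 7.60 FPKM.

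The targets Tiparp and Nqo1 were also present in every sample. Tiparp means ran from 44.5 ± 5.79 FPKM (SD, n = 5) in PD-1 Ab tumors after 1 dose to 18.4 ± 11.2 (n = 10) in PD-1cKO tumors, and no neighbours in that order were further apart than the larger SD. Nqo1 was highest in culture (6.97 ± 0.44, n = 3), above the next group, isotype after 1 dose (5.09 ± 0.73, n = 5), by more than that spread. It was lowest in PD-1cKO (2.51 ± 1.13, n = 10) next to WT (3.75 ± 1.71, n = 10), within that spread. For Tiparp and Nqo1 too, the PD-1cKO and WT libraries have the different composition given above. Their places in these orders are therefore a description.

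**Figure D1:**
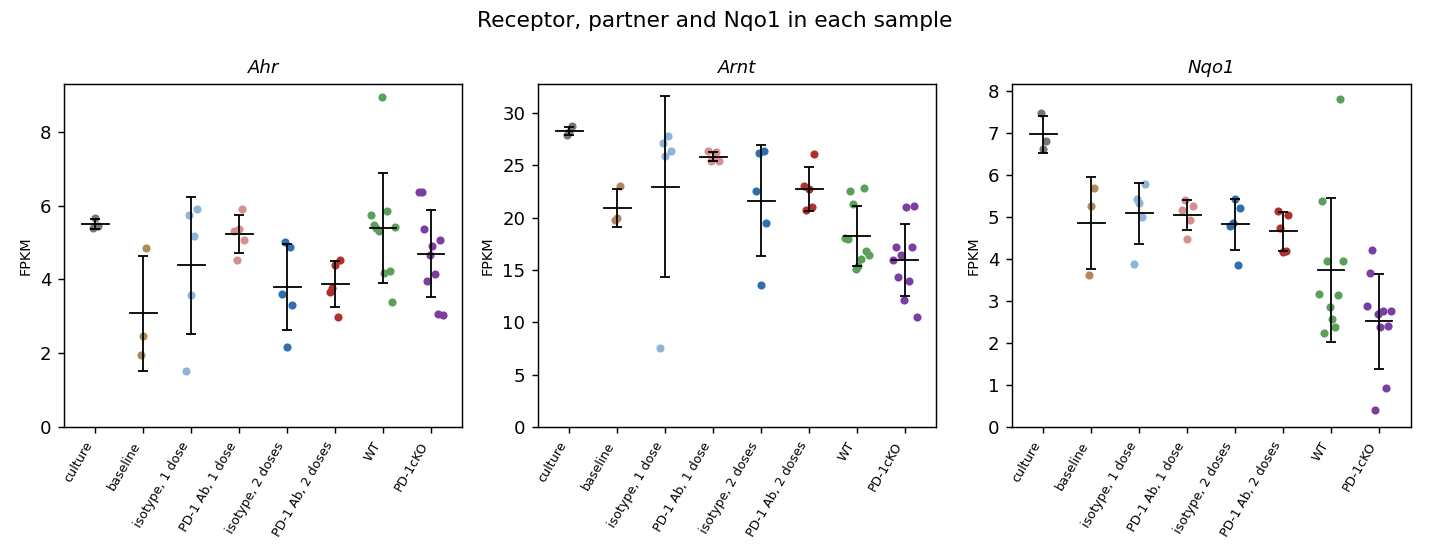
FPKM (linear axis from 0) of Ahr, Arnt and Nqo1 in each of the 46 samples by group, with points for samples, long bars for group means and error bars for the SD. Ahr means lie between 3.08 and 5.50 FPKM and Arnt means between 16.0 and 28.3, with 1 low isotype tumor after 1 dose at 7.60 FPKM of Arnt.

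Growth of the line as a tumor was examined first, by setting baseline tumors and isotype tumors after 1 dose against culture. Sample identifiers of these groups fell into separate ranges of numbers, so growth as a tumor and identifier run cannot be told apart. Cyp1a1, the inducible monooxygenase that metabolises AHR ligands, stood at 0.0138, 0.0359 and 0 FPKM in the cultures. It stood at 0.801, 0.555 and 0.684 FPKM in the baseline tumors and at 0.537, 0.488, 1.15, 0.553 and 0.280 FPKM in the isotype tumors. All values were low. Cyp1a1 rose at baseline by 2.74 on the log2(FPKM + 0.1) scale (SE 0.40, limma adjusted p = 0.000831) and in isotype tumors by 2.49 (SE 0.45, adjusted p = 0.00346). Against culture it passed the filter on low values (a mean of 0.5 FPKM in either group) only through the tumors, and with no filter the adjusted p was 0.000697 at baseline and 0.00451 in isotype tumors. Here called means 2-fold or more with an adjusted p below 0.01. Among 15217 genes tested at baseline 15.8% were called (12.1% higher and 3.75% lower), and among 15106 tested in isotype tumors 10.7% were called, 7.41% higher. The median gene stood at -0.43 in isotype tumors against culture (-0.06 after median-of-ratios scaling). The isotype result was as large without replicate 1 (2.50, adjusted p = 0.00112), but leaving out any 1 culture ended that call (adjusted p = 0.0153 to 0.0244). With log2(FPKM + 1) the differences were 0.72 at baseline and 0.63 in isotype tumors, both short of 2-fold. In bulk samples fewer cells of a type and less RNA per cell cannot be told apart, and host cell markers differed from culture in the same comparisons: 9 of 10 macrophage, 9 of 10 fibroblast, 8 of 10 T cell and 8 of 10 endothelial markers were called higher at baseline, as were 2 of the 3 keratinocyte markers tested. Their part in the result was not tested.

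Cyp1b1, the extrahepatic enzyme of the same family, moved the other way at baseline. It stood at 0.789, 0.780 and 0.754 FPKM in the cultures and at 0.136, 0.321 and 0.0776 FPKM in the baseline tumors. Cyp1b1 fell by 1.75 on the log2 scale (SE 0.39, adjusted p = 0.00678). Cyp1b1 passed the filter there only through the cultures, and with no filter it was not called (adjusted p = 0.0146). Leaving out any 1 culture ended the call as well (adjusted p = 0.0347 to 0.0369), as did leaving out baseline replicate 2 (0.0173). In 4 isotype tumors after 1 dose Cyp1b1 stood at 0.994 to 1.53 FPKM, above every culture and baseline tumor, while replicate 1 stood at 0.485. Against culture the isotype difference was 0.41 (SE 0.41, adjusted p = 0.487) and against baseline 2.16 (SE 0.51, adjusted p = 0.102), the latter becoming 2.41 (adjusted p = 0.00576) without replicate 1. In the comparison with baseline it passed the filter only through the isotype tumors.

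No other member was called for growth as a tumor. Arnt differed at baseline by -0.43 (SE 0.07, adjusted p = 0.00146) and Tiparp by -0.43 (SE 0.07, adjusted p = 0.00110), both short of the 2-fold limit. Ahr differed by -0.92 (SE 0.29, adjusted p = 0.0304) and by -1.29 (adjusted p = 0.000193) without baseline replicate 3, which held 4.84 FPKM against 1.94 and 2.46 in the other baseline tumors. Nqo1 differed by -0.53 (SE 0.17, adjusted p = 0.0290). In all, 2 of 6 members tested were called at baseline, 1 of 6 in isotype tumors against culture, and 0 of 6 in isotype tumors against baseline, where 0.0874% of all genes tested were called and the median gene stood at -0.33 (-0.03 after scaling). Since Cyp1a1 and Cyp1b1 each passed the filter through the higher group alone in some of these comparisons, these counts are a description. Ahrr failed it in all 3 comparisons, and its values spanned 0.0152 to 0.199 FPKM in culture, 0.0823 to 0.282 at baseline and 0 to 0.132 in isotype tumors, with exact permutation p = 0.300, 0.571 and 0.393 for the comparisons in the order above. With 3 against 3 samples the smallest exact p is 0.1, and with 5 against 3 it is 0.0357.

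**Figure D2:**
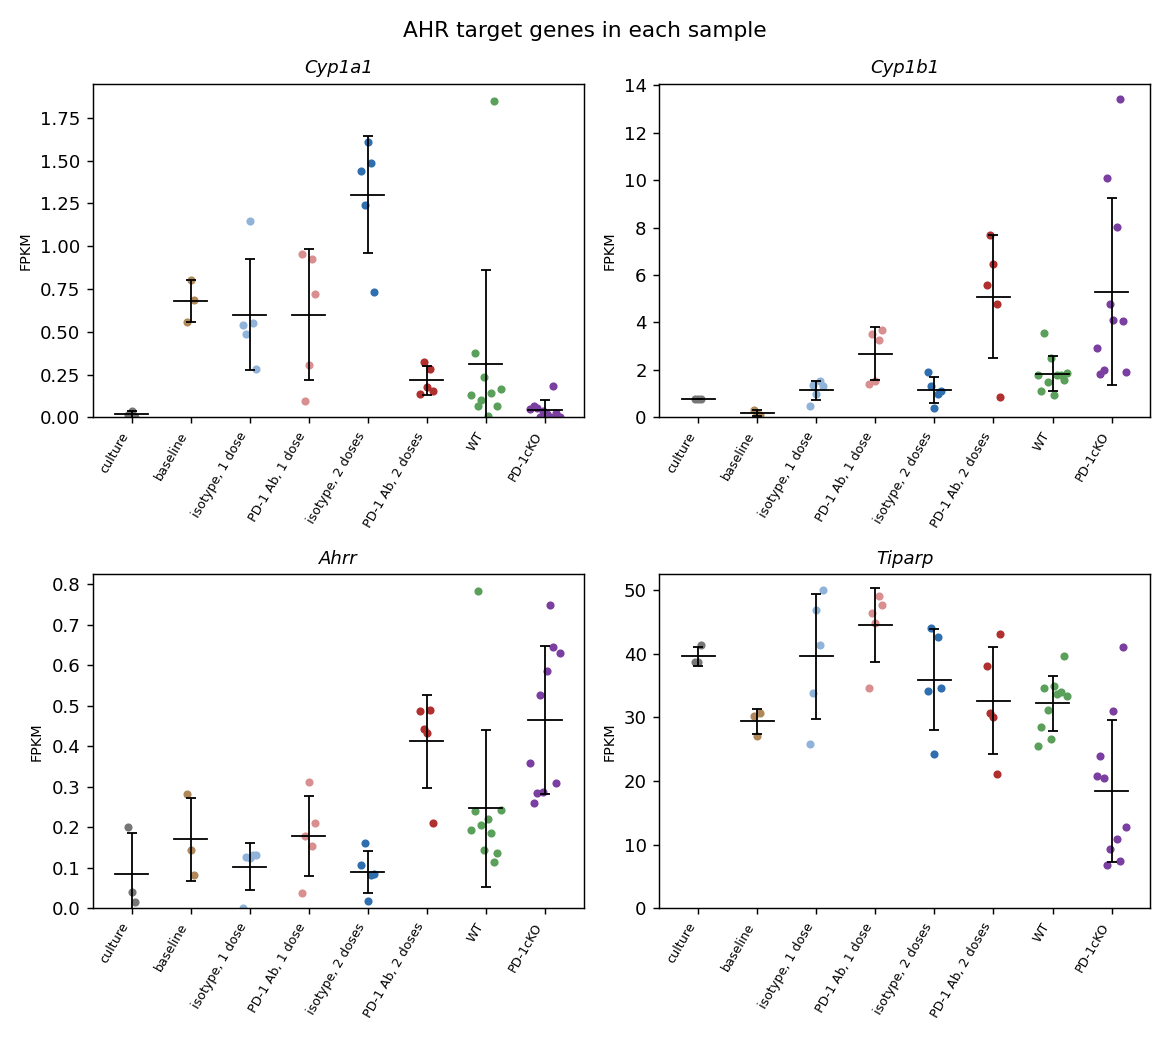
FPKM (linear axis from 0) of Cyp1a1, Cyp1b1, Ahrr and Tiparp in each of the 46 samples by group, with points for samples, long bars for group means and error bars for the SD. Cyp1a1 is highest in isotype tumors after 2 doses (mean 1.30 FPKM), and Cyp1b1 has its highest means in PD-1cKO (5.31) and PD-1 Ab tumors after 2 doses (5.08). The PD-1cKO and WT libraries differ in composition from the others, so levels are compared within a study.

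The first comparison of treatment asked what 1 dose of PD-1 Ab did. Cyp1a1 stood at 0.955, 0.0929, 0.305, 0.927 and 0.722 FPKM in PD-1 Ab tumors, with the same mean as the isotype tumors (0.601 FPKM in both, n = 5 each). The groups overlapped, and the difference was -0.15 on the log2 scale (SE 0.53, adjusted p = 0.904). Cyp1b1 stood at 1.39, 3.51, 1.54, 3.27 and 3.67 FPKM under PD-1 Ab against 0.485, 1.35, 0.994, 1.53 and 1.31 under isotype. In 4 of 5 PD-1 Ab tumors it lay above every isotype tumor, a difference of 1.14 (SE 0.39, unadjusted p = 0.0122, adjusted p = 0.560). No member was called of 6 tested, and 0% of the 14556 genes tested were called by limma (895 had an unadjusted p under 0.05), while 3.65% had groups that did not overlap, none of them a member. Ahrr stood at 0.0376 to 0.311 FPKM under PD-1 Ab and lay above every isotype tumor in 4 of 5, with an exact permutation p = 0.262 on a difference of 0.44. Without isotype replicate 1, Cyp1b1 differed by 0.90 (adjusted p = 0.180) and Arnt by -0.05 in place of 0.31. The median gene was 0.26 higher under PD-1 Ab, and 0.01 higher after median-of-ratios scaling, under which Cyp1b1 differed by 0.92 (adjusted p = 0.310) and Tiparp by -0.06 in place of 0.20.

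The samples after 2 doses chose the set, so their values are given as a description. Cyp1a1 stood at 1.44, 1.24, 1.61, 1.49 and 0.735 FPKM in isotype tumors and at 0.137, 0.323, 0.179, 0.284 and 0.153 FPKM in PD-1 Ab tumors. Every PD-1 Ab tumor lay below every isotype tumor. The difference was -2.15 on the log2(FPKM + 0.1) scale (SE 0.30), a fold of 0.226 on that scale and not a ratio of FPKM. Leaving out replicates gave -2.324 to -2.055. With log2(FPKM + 1) the Cyp1a1 difference was -0.91, short of 2-fold. By the size of the difference, which is what chose the set, its neighbours among the lowered genes averaging 1 FPKM or more in either group were Csf3, a granulocyte growth factor, at -2.16 and Hhip, a Hedgehog inhibitor, at -2.12. Of 15062 genes tested, 0.272% were called lower and 5.03% higher, and 15.3% had groups that did not overlap. The isotype mean was 0.601 FPKM after 1 dose and 1.30 after 2 doses, while the PD-1 Ab mean was 0.601 after 1 dose and 0.215 after 2 doses. Sample identifiers of the 1-dose and 2-dose tumors fell into separate runs of numbers, so dose and run cannot be told apart. Among the 1-dose tumors, some isotype tumors had lower identifiers than every PD-1 Ab tumor.

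Cyp1b1 and Ahrr stood on the other side of the isotype tumors after 2 doses. Cyp1b1 stood at 5.60, 7.69, 6.48, 4.78 and 0.862 FPKM under PD-1 Ab against 1.91, 1.34, 0.381, 0.992 and 1.11 under isotype, a difference of 1.91 (SE 0.55). Ahrr, which competes with AHR for ARNT, stood at 0.488, 0.442, 0.431, 0.489 and 0.210 FPKM under PD-1 Ab against 0.106, 0.161, 0.0164, 0.0825 and 0.0843 under isotype. All 5 PD-1 Ab tumors lay above the isotype tumors for Ahrr and 4 of 5 for Cyp1b1, and replicate 5 was the lowest PD-1 Ab tumor for both. Ahr (0.07, SE 0.22), Arnt (0.11, SE 0.17), Tiparp (-0.15, SE 0.20) and Nqo1 (-0.05, SE 0.13) had overlapping groups. The summed level of 10 T cell markers spanned 54.0 to 219 FPKM under PD-1 Ab and 14.5 to 28.2 under isotype in these tumors, and that of 10 macrophage markers 1539 to 3201 against 834 to 1316. Keratinocyte markers summed to 21.4 to 27.8 FPKM under PD-1 Ab and 17.5 to 44.2 under isotype. The part of these cell types in the members' values was not tested.

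Deletion of PD-1 was the comparison with the most tumors. Cyp1b1 spanned 1.81 to 13.4 FPKM (median 4.07) in PD-1cKO tumors and 0.921 to 3.56 (median 1.78) in WT tumors. In 6 of 10 PD-1cKO tumors it lay above every WT tumor, and none lay below. Cyp1b1 rose by 1.25 on the log2 scale (SE 0.33, 2.37-fold, adjusted p = 0.00669). Tiparp, which ADP-ribosylates and restrains AHR, spanned 6.84 to 41.0 FPKM (median 16.6) in PD-1cKO tumors and 25.5 to 39.6 (median 33.6) in WT tumors. In 8 of 10 PD-1cKO tumors it lay below every WT tumor and in 1 above every WT tumor. Tiparp fell by 1.03 on the log2 scale (SE 0.27, adjusted p = 0.00573), just past the 2-fold limit.

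These were 2 of 5 members tested, beside 8.07% of the 15075 genes tested (4.2% higher and 3.87% lower), and no member was among the 0.949% of genes whose groups did not overlap. Ahr (-0.20, SE 0.16, adjusted p = 0.334), Arnt (-0.20, SE 0.13, adjusted p = 0.191) and Nqo1 (-0.65, SE 0.32, adjusted p = 0.0970) were not called, against a median gene at -0.20 (-0.04 after median-of-ratios scaling). Scaling left Cyp1b1 called (1.40, adjusted p = 0.00431) and moved Tiparp to -0.87 (adjusted p = 0.00394), short of 2-fold. Short noncoding RNA held a median of 54.0% of FPKM in PD-1cKO and 45.3% in WT tumors. At the highest share in PD-1cKO (66.5%, replicate 8) Tiparp stood at 7.36 FPKM, and at the lowest (31.1%, replicate 9) at 41.0. In WT it stood at 25.5 FPKM at the highest share (54.6%, replicate 1) and 34.0 at the lowest (30.2%, replicate 8). The part of this share in the Tiparp difference was not tested. Leaving out PD-1cKO replicate 4, 5, 7 or 8, or WT replicate 6, 7, 9 or 10, ended both calls, with Cyp1b1 at 1.06 to 1.26 and Tiparp at -0.90 to -1.02. Leaving out PD-1cKO replicate 10 ended the Tiparp call alone, and leaving out WT replicate 2, 4 or 8 the Cyp1b1 call alone (1.18 to 1.25).

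Cyp1a1 and Ahrr failed the filter of a mean of 0.5 FPKM in either group here. Cyp1a1 spanned 0 to 0.185 FPKM (median 0.0312) in PD-1cKO tumors, 3 of them listed at 0, and 0.0097 to 1.85 (median 0.135) in WT tumors. The lower values lay mostly in PD-1cKO tumors with overlap, and the difference was -1.03 (SE 0.39, permutation p = 0.00524), or -0.72 (permutation p = 0.0112) without WT replicate 8, the tumor at 1.85 FPKM. Ahrr spanned 0.260 to 0.750 FPKM (median 0.442) in PD-1cKO tumors and 0.113 to 0.785 (median 0.200) in WT tumors. Every PD-1cKO tumor lay above 9 of the 10 WT tumors, WT replicate 3 being the exception, and the difference was 0.76 (SE 0.23, permutation p = 0.00556). In refits with another pseudocount, with scaling or without 1 tumor, the Ahrr permutation p reached 0.0118. Both tests are two-sided, over 100000 resamples, on single genes of a set of 6 such tests in all, and are not adjusted across genes.

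In the PD-1cKO study the sample identifiers fell into 3 runs of numbers that nearly separated the genotypes. The first run held 7 PD-1cKO tumors and no WT tumor, the second 1 PD-1cKO and 9 WT, and the third 2 PD-1cKO and 1 WT. In the second run Cyp1b1 stood at 13.4 FPKM in the PD-1cKO tumor against 1.83 ± 0.79 (SD, n = 9) in WT, and Tiparp at 7.36 against 32.1 ± 4.54. In the third run Cyp1b1 stood at 1.89 and 4.05 FPKM in PD-1cKO against 1.86 in WT, and Tiparp at 12.8 and 41.0 against 33.4. Cyp1a1 in the second run stood at 0.185 FPKM in the PD-1cKO tumor, above 6 of the 9 WT tumors, and in the third at 0 and 0.0241 in PD-1cKO against 0.166 in WT. Ahrr in the second run stood at 0.646 FPKM in the PD-1cKO tumor, above 8 of the 9 WT tumors, and in the third at 0.309 and 0.631 against 0.242. The permutation tests of Cyp1a1 and Ahrr took no account of the runs. With the runs as a covariate Cyp1b1 differed by 1.90 (SE 0.59, adjusted p = 0.0296) and Tiparp by -1.43 (SE 0.47, adjusted p = 0.0348), and neither was called. What the runs stand for is not given in the sources used here.

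**Figure D3:**
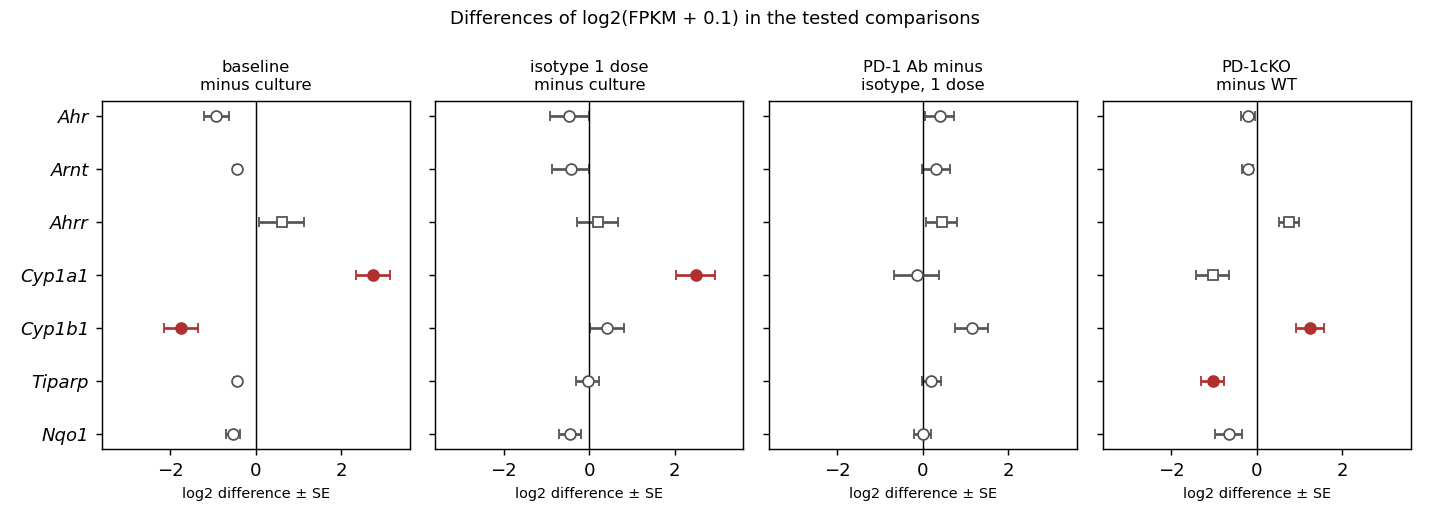
Differences of log2(FPKM + 0.1) with SE (horizontal axis) for the 7 members in 4 tested comparisons. Filled red circles passed an adjusted p of 0.01 and 2-fold, open circles did not, and open squares are members under the filter on low values; Cyp1a1 lies at 2.74 and 2.49 against culture, and Cyp1b1 at 1.25 and Tiparp at -1.03 in PD-1cKO tumors.

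Markers of other cells differed between PD-1cKO and WT tumors as well. All 10 T cell, 5 of 10 fibroblast, 4 of 10 macrophage and 3 of 10 endothelial markers were called higher, and none lower. So were 3 of 6 neutrophil markers tested, and 0 of 3 keratinocyte markers. Fibroblast markers summed to 2425 to 13196 FPKM in PD-1cKO and 1289 to 2638 in WT tumors, macrophage markers to 1382 to 4609 against 959 to 1595, and T cell markers to 39.8 to 182 against 16.2 to 57.2. Their part in the rise of Cyp1b1 was not tested. The antibody and deletion effects were also set against each other. The difference of the 1-dose effect and the deletion effect was 1.23 for Tiparp (SE 0.41, adjusted p = 0.122), 0.88 for Cyp1a1 (SE 0.65, adjusted p = 0.378) and -0.10 for Cyp1b1 (SE 0.55, adjusted p = 0.918). Cyp1a1 passed the filter in this contrast only through the antibody study, as its PD-1cKO and WT means lay under the limit. The median gene stood at 0.46 in this contrast. No member was called of 6 tested, nor any of 16161 genes (0%; 4165 had an unadjusted p under 0.05 by limma).

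Whether members moved together from tumor to tumor was examined in the 40 tumors of the 6 larger groups after subtracting each group's mean of log2(FPKM + 0.1). Of 21 pairs, Ahrr and Cyp1b1 alone had an adjusted p under 0.01 (r = 0.58, permutation p = 0.00018, adjusted p = 0.00378; rho = 0.57, permutation p = 0.00054, adjusted p = 0.0113). The relation held within the antibody study (r = 0.69, 20 tumors) and the PD-1cKO study (r = 0.49, 20 tumors), and was 0.53 without the 2 tumors farthest from the median of Ahrr. It was 0.55 with log2(FPKM + 1) (adjusted p = 0.0149) and 0.56 with median-of-ratios scaling (adjusted p = 0.0101), both over the limit of 0.01. No pair with Cyp1a1 passed that limit: r lay between -0.29 (Ahrr) and 0.12 (Arnt), and was 0.03 with Cyp1b1 (permutation p = 0.816, adjusted p = 0.916). Ahr and Arnt had r = 0.65 (permutation p = 0.00637, adjusted p = 0.0268; rho = 0.43, permutation p = 0.0142, adjusted p = 0.0597), which was 0.36 without the 2 farthest tumors, 0.93 in the antibody study and 0.12 in the PD-1cKO study. With median-of-ratios scaling it was 0.28 (permutation adjusted p = 0.272). Cyp1b1 and Nqo1 ran opposite (r = -0.47, permutation p = 0.00357, adjusted p = 0.0250; rho = -0.41, permutation p = 0.00704, adjusted p = 0.0370), but at 0.05 in the antibody study and -0.69 in the PD-1cKO study.

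**Figure D4:**
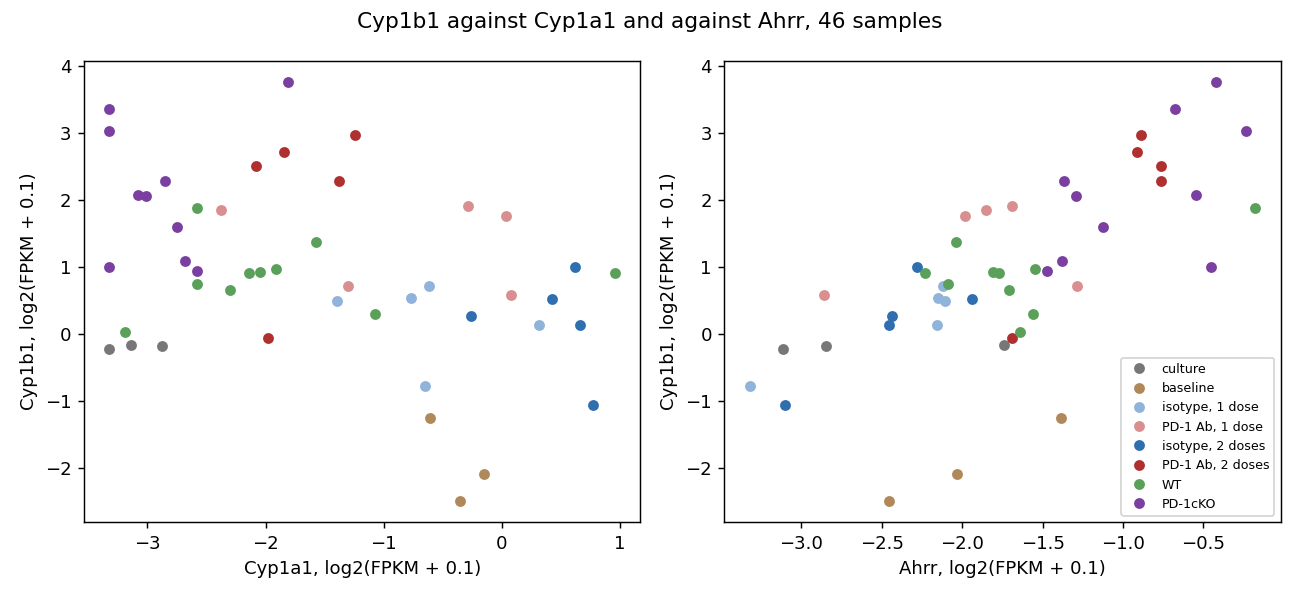
Cyp1b1 against Cyp1a1 (left) and against Ahrr (right), all as log2(FPKM + 0.1), with 1 point per sample (46 samples) and colors for groups. Beside WT tumors of the same study, PD-1cKO tumors lie mostly at higher Cyp1b1 and lower Cyp1a1, with overlap. Within groups Cyp1b1 has r = 0.58 with Ahrr and r = 0.03 with Cyp1a1 over 40 tumors.

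The genes most like a member were sought by the same correlation among genes averaging 1 FPKM or more over these tumors, as a description. No scaling was applied. With median-of-ratios scaling r of Ahr and Tiparp went from 0.43 to 0.07 and of Arnt and Tiparp from 0.47 to 0.01. That of Ahrr and Cyp1b1 went from 0.58 to 0.56. How scaling moves the genes below was not tested. For Cyp1a1 the closest 5 of 13181 genes were Cdh13 (r = 0.47), Ackr1 (0.46), Lysmd2 (0.45), Dnah14 (0.44) and H2-Q10 (0.43), all weak, and Cdh13 fell to 0.07 in the antibody study. For Ahr they were Epg5 (0.85), Hdac4, Flt1, Htr2a and Zswim6 (0.82 each). For Tiparp they were Mtrex (0.96), Dars, Cse1l, Cul2 and Fnbp1l (all 0.95), above 0.86 in both studies. Cyp1b1, added after its values were seen, was closest to Svep1 (0.92), Nid1 (0.92), Lama2 (0.91), Srpx (0.91) and Rassf4 (0.89), of which Nid1 and Lama2 encode basement membrane proteins.

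The rest of the pathway was followed through 4 gene lists. Of 13 genes of the AHR complex and the bHLH-PAS family, 8 were tested in PD-1cKO tumors. There 1 was called lower and 1 higher, beside 3.87% and 4.2% of all genes tested. The chaperone gene Hsp90aa1 fell by 1.45 (SE 0.29, limma adjusted p = 0.00145). It averaged 92.1 ± 61.7 FPKM in PD-1cKO and 211 ± 35.3 in WT (SD, n = 10 each). Epas1, the hypoxia factor that also pairs with ARNT, rose by 1.11 (SE 0.30, limma adjusted p = 0.00747). Epas1 averaged 8.83 ± 5.11 FPKM in PD-1cKO and 3.70 ± 1.30 in WT. Refits with identifier runs, with scaling or without a replicate were made for the members only. The genes of these lists share the near separation of genotypes by run given above. None of the list was called in the other tested comparisons. Its median was -0.50 in PD-1cKO tumors against -0.20 over all genes tested.

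Of 16 further genes described as AHR targets, 0 of 10 tested were called in PD-1cKO tumors and 0 of 9 after 1 dose, with Entpd1, the ectonucleotidase CD39, at 0.82 in PD-1cKO tumors (SE 0.14, adjusted p = 0.000726), short of 2-fold. Against culture, 4 of 8 tested were higher and 2 lower at baseline, where 12.1% of all genes tested were called higher and 3.75% lower. Entpd1 had a mean of 0.0413 FPKM in culture and 9.19 at baseline (6.06, SE 0.44, adjusted p = 2.70e-05), and Ugt1a6a, a glucuronidating enzyme, 0.624 and 6.58 (3.13, SE 0.31, adjusted p = 0.000123). Il10, an anti-inflammatory cytokine, was also higher (3.08, SE 0.45, adjusted p = 0.00084), and Ptgs2, the inducible prostaglandin synthase, was lower (-1.59, SE 0.11, adjusted p = 1.9e-05; 8.21 and 2.68 FPKM). Socs2 was called higher and Ereg lower. In isotype tumors Entpd1, Il10 and Ugt1a6a were called higher against culture and none lower. Macrophage markers were called higher in the same comparisons (9 of 10 at baseline and 8 of 10 in isotype tumors), and their part in these values was not tested.

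Another list held 12 genes of the route from tryptophan to kynurenine and its products. Not all of them supply the AHR ligand kynurenine, since Kmo, Kynu and Haao act on it or on its products. At baseline Ido1, Ido2, Kmo and Haao were called higher than in culture (4 of 8 tested), beside 12.1% of all genes tested. In isotype tumors Ido1, Kmo, Kynu and Haao were called higher than in culture (4 of 9), beside 7.41% of all genes tested. Ido1, the first enzyme of the route, was listed at 0 in all 3 cultures and had a mean of 3.79 ± 1.74 FPKM (n = 3) at baseline. After 1 dose it stood at 6.59 ± 1.40 FPKM under PD-1 Ab and 2.24 ± 1.57 under isotype (SD, n = 5 each), a difference of 1.81 (SE 0.46, adjusted p = 0.287). The groups did not overlap (lowest 5.29, highest isotype 4.10), as for 3.65% of all genes tested. In PD-1cKO and WT tumors Ido1 was 13.0 ± 9.91 and 10.6 ± 6.05 FPKM (n = 10 each), a difference of -0.02 (SE 0.56, limma adjusted p = 0.979). Kyat3, an aminotransferase that turns kynurenine into kynurenic acid, fell by 1.13 (SE 0.27, limma adjusted p = 0.00416). It was the 1 gene called of 10 tested, beside 8.07% of all genes tested, and was not refitted with the identifier runs. After 2 doses, as a description, Ido1 was 11.2 ± 2.35 FPKM under PD-1 Ab and 2.43 ± 1.52 under isotype (n = 5 each), while Cyp1a1 was lower under PD-1 Ab in the same tumors.

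Of 12 genes of NRF2 and its targets, the other route to Nqo1, none was called in any tested comparison. Nfe2l2, which encodes NRF2, was 20.7 ± 4.14 FPKM in PD-1cKO and 23.1 ± 3.07 in WT tumors (n = 10 each; -0.17, SE 0.12, adjusted p = 0.232) and differed by 0.33 after 1 dose (SE 0.27, adjusted p = 0.825). The list's median was -0.20 in PD-1cKO tumors, equal to that over all genes tested.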

How the data were processed

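RNA from 46 samples was depleted of ribosomal RNA and sequenced as 50-base stranded pairs; the authors aligned reads to the mouse B38 genome with the Omicsoft aligner, quantified genes on Ensembl R86 and tested counts with DESeq2. Those counts are not used here. The deposited table holds FPKM (fragments scaled by gene length and library size) for 48795 genes, and 99.1% of their identifiers matched a gene name. Differences were tested with limma 3.58.1 (R 4.3.3, eBayes with trend) on log2(FPKM + 0.1) for genes that averaged 0.5 FPKM or more in 1 of the groups compared, with Benjamini-Hochberg adjustment over all of them; called means 2-fold or more with an adjusted p below 0.01. A fold change on this scale understates that of low genes, and depth behind each FPKM is unknown, so no counting error is given. Members under the filter were tested alone by permutation. The fit was tested on simulated data. Members and gene lists were chosen with earlier results of these data known. Named genes were the members; from each list the genes called, up to 4 with the largest change, with Ido1, Nfe2l2 and Cyp1a2; and the 5 genes most correlated with Cyp1a1, Ahr and Tiparp. Labels give replicate numbers but no separate litters or batches, so p-values measure the spread between these samples. Same-numbered samples did not pair (at most 1 pair per comparison had a correlation over 0.1). No 2 columns were identical. Alternatives were another pseudocount, other filters, median-of-ratios scaling, eBayes without trend, array weights, 1 fit over all tumors, leaving out replicates, a replicate block and identifier runs.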

Additional observations from a re-analysis of the deposited data

Results flagged for a closer look

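Samples far from the rest of their group by Dixon's test were found for 7 of 42 combinations of member and group, where chance flags about 1 in 20. Isotype replicate 1 after 1 dose, the library with 54.6% mitochondrial FPKM, was lowest for Arnt (7.60 FPKM) and for Ahrr (0). PD-1 Ab replicate 5 after 2 doses was lowest for Ahrr (0.210 FPKM). In the PD-1cKO study, WT replicate 5 was highest for Ahr (8.93 FPKM), WT replicate 3 for Ahrr (0.785), WT replicate 8 for Cyp1a1 (1.85) and PD-1cKO replicate 8 for Cyp1a1 (0.185).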

How the results depend on the processing

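FPKM without depth gives no counting error, which limits Cyp1a1 and Ahrr, whose levels lay near 0 in several groups. No member was called after 1 dose, or for the difference of effects, under any of the alternatives run. In PD-1cKO tumors the 2 calls became 0 with log2(FPKM + 1), no filter, array weights or identifier runs, 1 with median-of-ratios scaling, and 0 to 2 leaving out replicates. With a replicate block 1 was left (Tiparp, adjusted p = 0.00803; Cyp1b1 at 0.0127), and the block changed no other call; same-numbered samples share only a number. The 2 calls at baseline became 0 with log2(FPKM + 1) or a filter at 1 FPKM, 1 with no filter or 1 fit over all tumors, 3 with array weights (Ahr added, -1.16, adjusted p = 0.000308), and 1 to 3 leaving out replicates. The 1 call of isotype tumors against culture became 0 with log2(FPKM + 1) or a filter at 1 FPKM and 0 to 1 leaving out replicates: 0 without any 1 culture, and 0 without isotype replicate 3, where Cyp1a1 failed the filter. The 0 calls against baseline became 1 with array weights (Cyp1b1) and 0 to 1 leaving out replicates. The 1 correlated pair became 0 with log2(FPKM + 1) and 0 with scaling, at r = 0.55 and 0.56 in place of 0.58. The causes were not tested, beyond fewer samples or genes.

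Signs turned only for differences that were not called. After 1 dose Arnt went to -0.0641 with array weights, -0.053 to 0.41 leaving out replicates and -0.0252 with scaling and isotype replicate 1 left out together (added after seeing the data), Tiparp to -0.0566 with scaling, Cyp1a1 to -0.36 to 0.26 and Nqo1 to -0.0937 to 0.0468 leaving out replicates. For isotype tumors against culture Tiparp went to 0.33 with scaling, 0.12 with array weights and -0.13 to 0.11 leaving out replicates, and Ahrr to -0.0752 to 0.61. Against baseline Arnt went to 0.0063 with log2(FPKM + 1), 0.30 with scaling, 0.41 with array weights and -0.11 to 0.36 leaving out replicates, Cyp1a1 to 0.0261 with scaling and Nqo1 to -0.12 to 0.20 leaving out replicates. For the difference of effects Cyp1b1 went to 0.18 with array weights and -0.35 to 0.0939 leaving out replicates. Of 816 refits of single members, 726 kept direction and side of the threshold, and most of these were of differences that were not called. In PD-1cKO tumors the Cyp1b1 call held in 13 of 29 refits and the Tiparp call in 15 of 29. At baseline the Cyp1a1 call held in 11 of 12 and the Cyp1b1 call in 5 of 12. In isotype tumors against culture the Cyp1a1 call held in 9 of 13. In PD-1cKO tumors the permutation p stayed under 0.01 in 13 of 22 refits for Ahrr and 16 of 22 for Cyp1a1.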
